A study of Mus musculus with 12 samples.

Results

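Interferon-stimulated genes are transcribed when a cell senses interferon, and 45 of them were followed in mouse bone marrow cells cultured with indole-3-propionic acid (IPA), a tryptophan metabolite made by gut bacteria. The 45 genes were found by their symbols in a table of 54532 genes. All 45 exceeded 0.5 CPM, the reads of a gene scaled to a common library total, in 2 or more of the 12 libraries and were therefore among the 14894 genes tested. The cells came from wild-type C57BL/6 mice and were grown for 5 days with GM-CSF and IL-6, cytokines used here to drive the formation of immunosuppressive myeloid cells. The medium also held DMSO alone (vehicle, 4 libraries), 10 µM IPA (4 libraries) or 50 µM IPA (4 libraries). All 3 groups thus shared the genotype, the cytokines and the day of harvest, and no group was given interferon according to the labels. The stated purpose was to learn how IPA alters the generation of these myeloid cells. The methods name young adult females as the study's mice and give no separate age for these cultures. The sources used here do not say whether the 4 libraries of a group came from separate mice or cultures, so p values measure the spread between these libraries, which may be technical.

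Type I interferons bind a receptor made of IFNAR1 and IFNAR2. The kinases JAK1 and TYK2 then phosphorylate STAT2, which joins IRF9 in a complex that binds the interferon-stimulated response element (ISRE) of target promoters. Interferon gamma signals through IFNGR1 and IFNGR2 and acts mainly at the gamma-activated site (GAS). The induced proteins detect foreign nucleic acid, block translation, destroy RNA, tag proteins with ISG15 and restrict the entry or release of viruses, and many of their genes keep a low level of transcription in myeloid cells without infection.

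The libraries held between 20451312 and 28038612 counted reads, of which 42481 to 57537 fell on the 45 genes. Between libraries of one group, counts differed by more than sampling noise for every pair (chi-square per degree of freedom at least 4.77), so no library was a copy of another. Neutrophil markers such as *S100a9* and monocyte markers such as *Csf1r* were abundant (summed 14230 to 28570 CPM over 11 genes and 3066 to 5667 CPM over 6 genes), whereas B cell markers summed to at most 60.9 CPM over 8 genes and T cell and NK cell markers to at most 22.1 CPM over 11 genes. Vehicle replicate 4, 10 µM replicate 1 and 50 µM replicate 3 differed from the other 9 libraries in the trend of their counts with exon length (slopes of -0.0457, -0.0481 and -0.0562, against -0.0125 to 0.0426). Calls that were lost without any of them are named with the gene.

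The promoters of these genes were examined first for the sites just described. RefSeq start sites on GRCm38.p6 were matched by symbol for 35 of the 45 genes, each with a window of 250 bases before and 50 bases after the start. The ISRE core was searched as GAAANNGAA and the GAS as TTCNNNGAA, where N is any base, on both strands; the GAS reads the same on either strand, and the ends of the motifs can overlap. The ISRE core was present in the windows of 21 of the 35 genes (60%), against 9.76% of 27025 genes with a window, and the GAS in 9 (25.7%), against 9.55%. A match describes these letters only and is not a test of binding, and a gene without a match has none in this window.

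Of the genes lower at 50 µM than at 10 µM IPA, 7 of the 13 with a window held the ISRE core (53.8%), and of those higher, both with a window held it. The share over all 35 genes with a window was 60%. The 250 bases before the start are given for 5 genes, to show the core in the modifier that names many of these genes (*Isg15*), in 2 genes that were higher at 50 µM IPA than with vehicle (*Stat2* and *Bst2*) and in 2 that were lower than at 10 µM (*Oas3* and *Rsad2*). Each reads from 5′ to 3′ on the strand of the gene, with bases of an ISRE core on either strand in capitals:
*Isg15* (chr4:156200819-156201068, minus strand): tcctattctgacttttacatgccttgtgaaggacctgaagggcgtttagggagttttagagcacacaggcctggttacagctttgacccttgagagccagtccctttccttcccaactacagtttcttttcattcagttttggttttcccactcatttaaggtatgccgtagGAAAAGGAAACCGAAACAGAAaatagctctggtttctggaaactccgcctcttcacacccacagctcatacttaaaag
*Stat2* (chr10:128270248-128270497, plus strand): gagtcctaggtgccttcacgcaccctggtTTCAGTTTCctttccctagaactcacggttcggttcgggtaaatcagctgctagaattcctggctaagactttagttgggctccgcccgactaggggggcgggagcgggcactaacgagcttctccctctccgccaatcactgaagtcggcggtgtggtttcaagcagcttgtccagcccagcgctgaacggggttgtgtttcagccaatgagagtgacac
*Bst2* (chr8:71537473-71537722, minus strand): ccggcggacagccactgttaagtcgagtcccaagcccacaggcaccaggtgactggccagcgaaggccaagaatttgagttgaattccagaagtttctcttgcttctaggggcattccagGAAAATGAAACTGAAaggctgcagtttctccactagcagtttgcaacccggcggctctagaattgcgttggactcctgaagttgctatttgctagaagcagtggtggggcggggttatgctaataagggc
*Oas3* (chr5:120777660-120777909, minus strand): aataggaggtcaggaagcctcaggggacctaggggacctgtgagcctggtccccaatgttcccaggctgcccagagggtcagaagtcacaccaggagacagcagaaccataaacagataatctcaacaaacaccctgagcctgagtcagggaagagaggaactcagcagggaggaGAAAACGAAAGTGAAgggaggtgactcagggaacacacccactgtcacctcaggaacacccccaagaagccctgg
*Rsad2* (chr12:26456453-26456702, minus strand): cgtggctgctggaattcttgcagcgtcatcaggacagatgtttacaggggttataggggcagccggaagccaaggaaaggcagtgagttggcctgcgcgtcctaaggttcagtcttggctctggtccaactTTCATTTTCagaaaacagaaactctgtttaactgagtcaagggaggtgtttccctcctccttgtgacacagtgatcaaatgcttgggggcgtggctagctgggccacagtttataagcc

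Counted from the start of transcription at 0, the cores began at -78, -72 and -66 in *Isg15*, where they overlap into 1 run, at -75 and -69 in *Oas3* and at -130 and -124 in *Bst2*. The single cores of *Stat2* (-221) and *Rsad2* (-119) were on the opposite strand. In *Ifitm3* both cores lay just after the start, at 2 and 19, in the stretch GAAAAGGAAacttctgaGAAACCGAA, and a GAS at 13 overlapped the latter. *Ifit1* and *Ifit3* held 3 cores each and *Oas1a* 2, whereas *Irf7*, *Irf9*, *Cmpk2*, *Ifit2*, *Epsti1*, *Oasl2* and *Sp100* had none in these windows.

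Levels were compared between genes as CPM per kilobase of exon, over all 12 libraries. The median of the 45 genes was 7.67 CPM per kilobase, against 4.68 for all genes tested, and 28 of the 45 lay above that value. *Ifitm3*, a membrane protein that hinders the fusion of viruses in endosomes, was the most abundant at 771 CPM per kilobase. *Bst2*, or tetherin, which holds budding virus at the cell surface, followed at 53.2 and *Samd9l*, which restricts poxviruses and slows translation, at 28.1. The lowest were *Mx2* (0.207 CPM per kilobase) and *Ifi44* (0.0998), the latter with 0 to 36 counts per library. Within a group, the median coefficient of variation of the 45 genes was 13.1% with vehicle, 9.4% at 10 µM and 11.9% at 50 µM, against 13%, 11.1% and 11.1% for all genes tested.

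**Figure D1:**
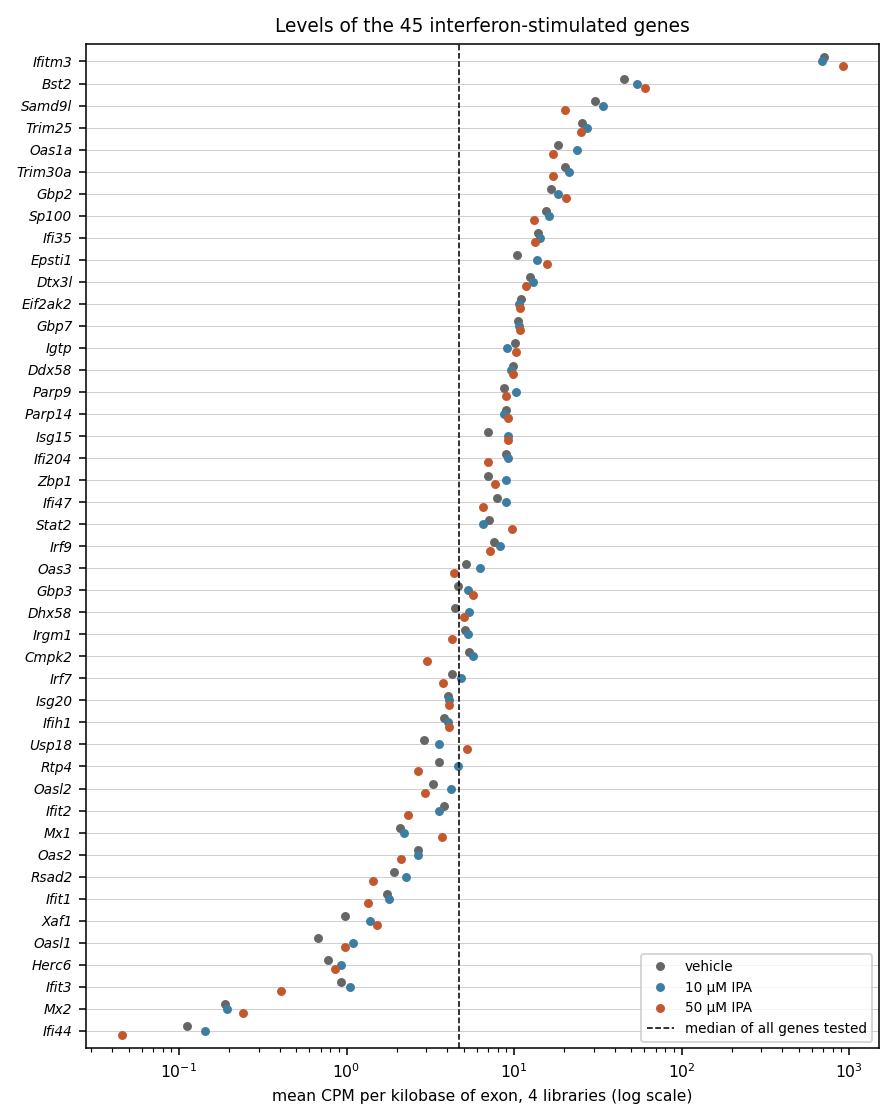
Mean CPM per kilobase of exon (log scale) of the 45 interferon-stimulated genes with vehicle, 10 µM IPA and 50 µM IPA, each point the mean of 4 libraries, in order of the mean over 12 libraries. The dashed line is the median of all genes tested, 4.68 CPM per kilobase, and 28 of the 45 genes lie above it by their mean over all libraries.

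At 10 µM IPA the genes lay mostly a little above vehicle, but none passed the test. By edgeR's quasi-likelihood test, 0 of the 45 had an adjusted p under 0.05 (background 0.41% of 14894 genes, 0.329% higher and 0.0806% lower), and by limma-voom 0 as well (background 0.423%). DESeq2 called 3, all higher (*Epsti1*, *Zbp1* and *Oasl2*), against a background of 1.86%, 1.46% higher, of the 13450 genes to which it gave an adjusted p. The log2 fold change was above 0 for 37 of the 45 (82.2%), against 48.2% of all genes tested, and its median was 0.11, against -0.0064 for all genes tested. An unadjusted p under 0.05 was reached by 11 genes, all of them higher (24.4%, against 8.78% of all genes, 5.42% on the higher side): *Bst2*, *Epsti1*, *Isg15*, *Oas1a*, *Oas3*, *Oasl1*, *Oasl2*, *Parp9*, *Usp18*, *Xaf1* and *Zbp1*. None was lower at that level, against 3.36% of all genes. The 4 libraries at 10 µM all lay above the 4 with vehicle for *Epsti1*, *Isg15*, *Oasl2*, *Parp9* and *Zbp1* (11.1%, against 6.13% of all genes in either direction and 3.57% higher), and for none of the 45 did they all lie below (2.56% of all genes). The mean was highest at 10 µM for 26 of the 45 genes (57.8%, against 26.7% of all genes), at 50 µM for 16 and with vehicle for 3 (35.6% and 6.67%, against 41.2% and 32.1% of all genes). In RNA of a mixed culture, fewer cells of a type and less RNA per cell cannot be told apart.

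*Epsti1*, an interferon-responsive gene first described at the contact of epithelium and stroma, came nearest to the threshold. It measured 23.7, 22.4, 26.8 and 23.5 CPM in vehicle replicates 1 to 4 and 32.8, 34.0, 29.5 and 31.3 CPM at 10 µM (log2 fold change 0.40, standard error 0.082, adjusted p = 0.0712), and the 2 groups did not overlap. *Zbp1*, a sensor of Z-form nucleic acid that can trigger necroptosis, averaged 24.9 ± 0.920 CPM (SD, n = 4) in the vehicle libraries and 31.6 ± 2.67 (SD, n = 4) in those at 10 µM (log2 fold change 0.35, standard error 0.080, adjusted p = 0.113). *Oasl2*, an OAS-like protein of the antiviral response, had 17.9, 19.6, 23.5 and 22.3 CPM with vehicle and 27.7, 27.0, 27.1 and 25.6 CPM at 10 µM (log2 fold change 0.37, standard error 0.095, adjusted p = 0.168). *Isg15*, the ubiquitin-like modifier, measured 4.502, 5.38, 5.51 and 5.84 CPM with vehicle, 8.73, 6.44, 6.10 and 6.50 at 10 µM and 6.84, 6.96, 8.01 and 6.01 at 50 µM. All 8 IPA libraries were above all 4 vehicle libraries, yet neither difference passed (log2 fold change 0.39, 95% interval 0.058 to 0.72, adjusted p = 0.455 at 10 µM, and 0.40, 0.083 to 0.71, adjusted p = 0.0917 at 50 µM). None of the 45 passed in any of the 8 fits that left out 1 library.

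**Figure D2:**
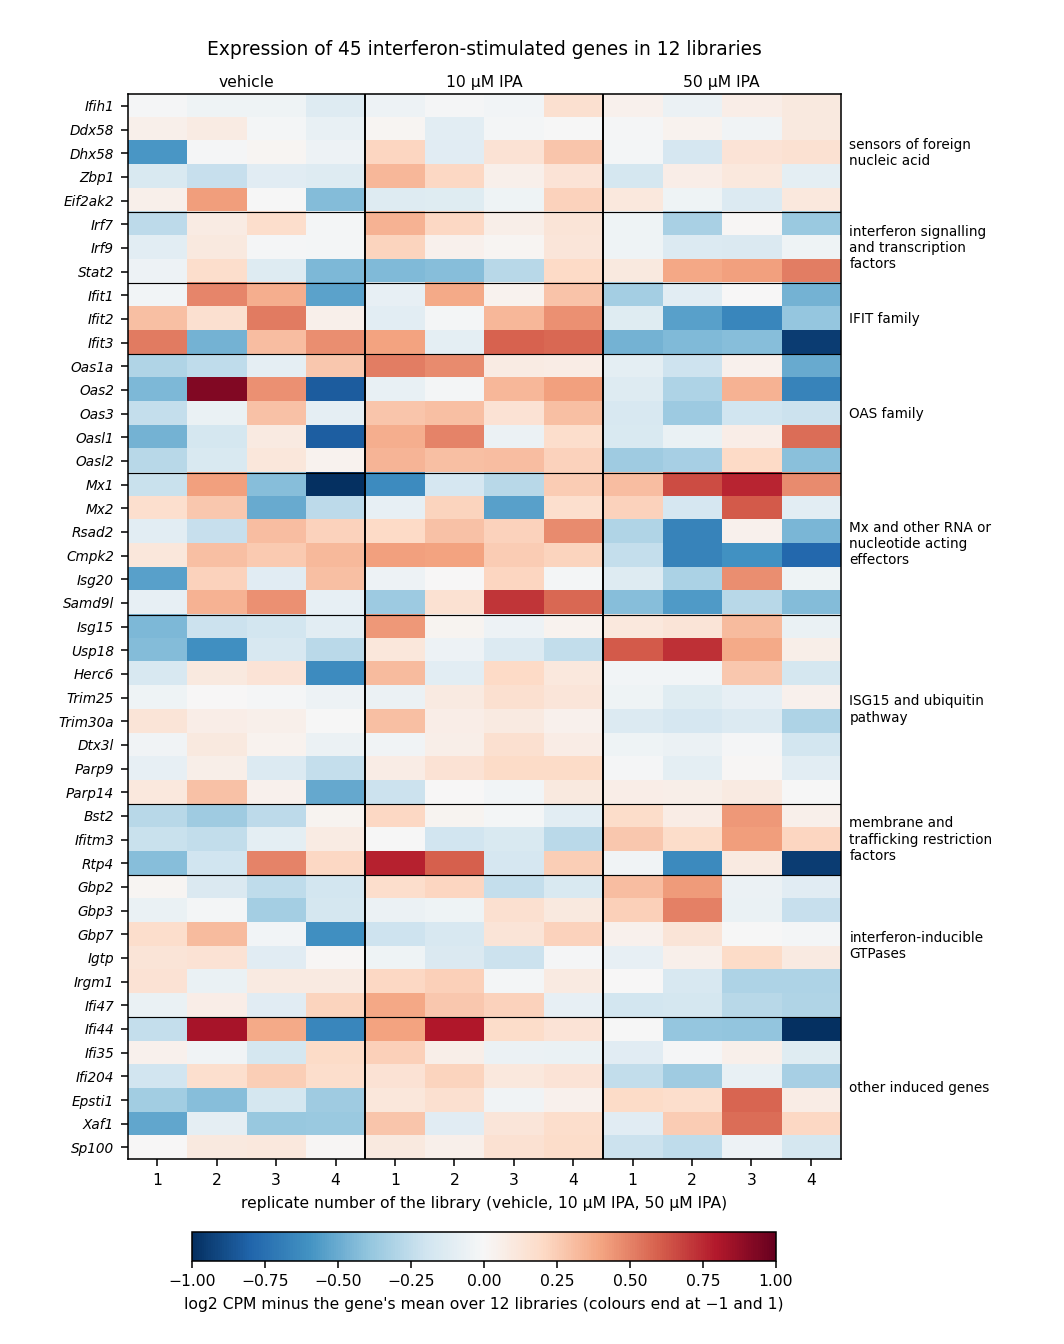
Heat map of the 45 interferon-stimulated genes (rows, grouped by role) in the 12 libraries (columns, replicates 1 to 4 of vehicle, 10 µM IPA and 50 µM IPA). Colour gives log2 CPM minus the gene's mean over 12 libraries, red above and blue below; between 27 and 36 of the genes were above their mean in the 10 µM libraries, against 14 to 25 with vehicle and 14 to 26 at 50 µM.

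At 50 µM IPA the genes parted in both directions. The paper describes this dose as above physiological levels and reports slightly reduced cell viability at it, but not at 10 µM. The part of viability in these changes was not tested. Against vehicle, 12 of the 45 passed the test (26.7%, background 13.5%), 7 higher (background 7%) and 5 lower (background 6.5%). Against 10 µM IPA, 19 passed (42.2%, background 15.4%), 4 higher (background 7.52%) and 15 lower (background 7.85%). The median log2 fold change of the 45 was -0.016 against vehicle (all genes 0.012) and -0.14 against 10 µM (all genes 0.0084), and the median absolute value was 0.26 and 0.29 (all genes 0.19 and 0.18). Log2 fold changes were above 0 for 22 of the 45 against vehicle (51.8% of all genes) and for 17 against 10 µM (51.4%). The groups did not overlap for 5 higher and 6 lower genes against vehicle (9.45% and 10.5% of all genes, 20% together) and for 2 higher and 15 lower genes against 10 µM (9.43% and 10.9%, 20.3% together). An unadjusted p under 0.05 was reached by 19 genes against vehicle, 9 higher and 10 lower (27.9% of all genes, 14.4% higher and 13.5% lower) and by 24 against 10 µM, 4 higher and 20 lower (29.5%, 14.9% higher and 14.6% lower). Both comparisons rest on the same 4 libraries of 50 µM IPA, so the values of each are given side by side.

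**Figure D3:**
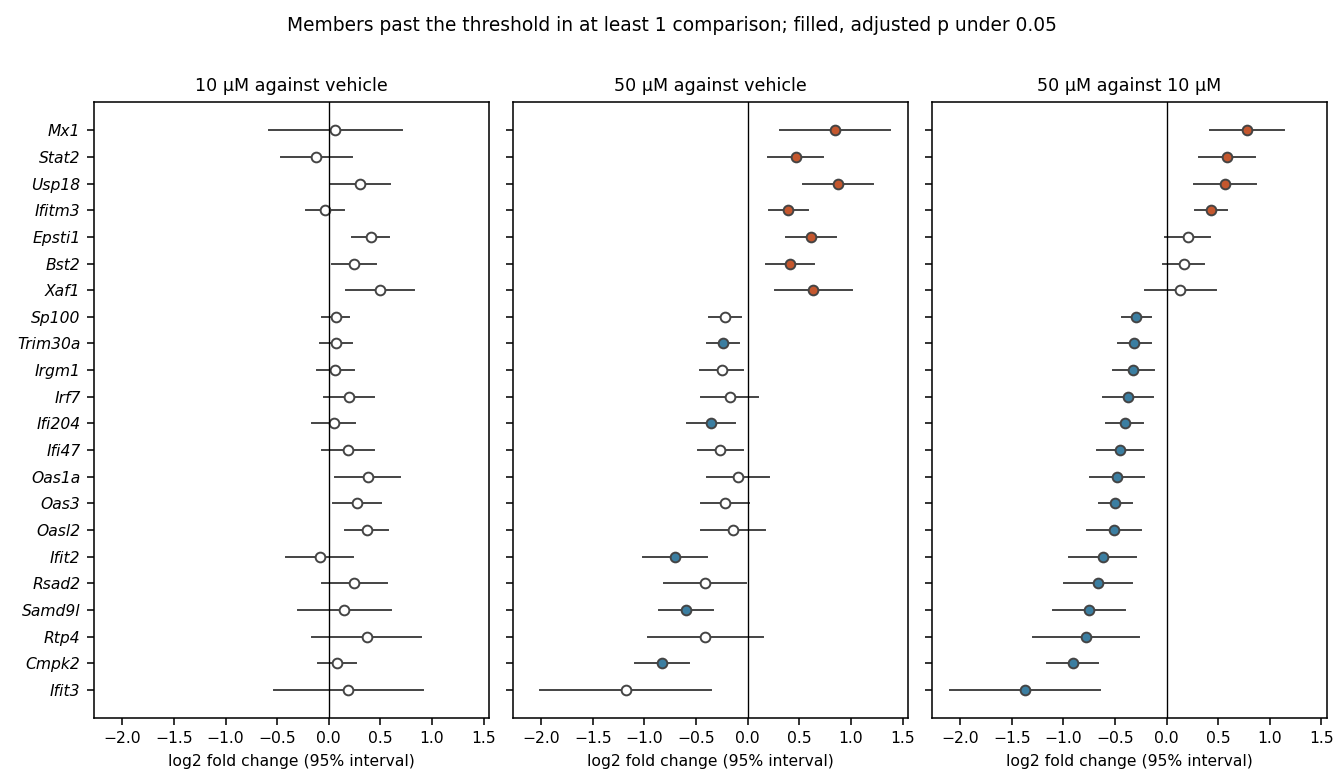
Log2 fold changes with 95% intervals (lines) of the 22 genes that passed in at least 1 comparison, in the 3 comparisons; filled points have an adjusted p under 0.05, red higher and blue lower, and open points do not. No point is filled at 10 µM against vehicle; 12 are at 50 µM against vehicle and 19 at 50 µM against 10 µM.

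Of the factors that carry the interferon signal, *Stat2* rose and *Irf7* fell, while *Irf9* passed in neither comparison. Gene positions are those of the GENCODE annotation of GRCm38. *Stat2* (ENSMUSG00000040033, chr10:128270559-128292849), the STAT of the type I response, measured 43.1, 50.7, 40.9 and 32.6 CPM with vehicle, 32.7, 33.2, 36.8 and 51.2 at 10 µM and 47.8, 58.6, 59.5 and 63.8 at 50 µM. Higher values came from 50 µM, although the lowest of them, replicate 1, lay inside the range of both other groups. *Stat2* was higher than with vehicle (log2 fold change 0.47, standard error 0.12, adjusted p = 0.0233) and than at 10 µM (log2 fold change 0.58, standard error 0.13, adjusted p = 0.00553). Its call against vehicle was lost without vehicle replicate 1 or 3 or 50 µM replicate 2, 3 or 4 (adjusted p between 0.0570 and 0.0798), while that against 10 µM held in all 8 such fits.

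*Irf7* (ENSMUSG00000025498, chr7:141262706-141266481), the factor that amplifies interferon alpha transcription, had 13.2, 17.0, 18.1 and 15.8 CPM with vehicle, 20.5, 18.6, 16.7 and 17.5 at 10 µM and 15.5, 12.7, 16.1 and 12.3 at 50 µM. All 50 µM libraries were below all 10 µM libraries, and both overlapped vehicle. *Irf7* fell from 10 to 50 µM (log2 fold change -0.37, standard error 0.11, adjusted p = 0.0374) but did not pass against vehicle (log2 fold change -0.17, adjusted p = 0.408). The fall did not pass without 10 µM replicate 1 or 2 or 50 µM replicate 2 or 4 (adjusted p between 0.0866 and 0.116). Its exons overlap those of *Phrf1* on the other strand by 45 bases, and whether reads were counted by strand is not given in the sources used here. *Irf9*, the DNA-binding partner of STAT2, measured 38.2, 44.1, 40.9 and 40.7 CPM with vehicle, 48.2, 42.4, 41.8 and 44.8 at 10 µM and 40.01, 37.5, 37.1 and 40.02 at 50 µM. All 4 libraries at 50 µM lay below those at 10 µM, with a difference that missed the threshold (log2 fold change -0.19, adjusted p = 0.0873). Its exons share 123 bases with *Rnf31* on the same strand.

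None of the 5 sensors of foreign nucleic acid passed in any comparison. *Ifih1* (MDA5, a sensor of long double-stranded RNA) measured 32.0, 31.4, 31.5 and 29.6 CPM with vehicle, 31.1, 32.1, 31.7 and 36.1 at 10 µM and 33.4, 31.0, 34.0 and 34.7 at 50 µM. The 3 groups overlapped, with a log2 fold change at 50 µM of 0.10 against vehicle (95% interval -0.059 to 0.27). *Ddx58* (RIG-I, a sensor of RNA with 5′ triphosphates) had 71.0, 72.5, 67.6 and 65.1 CPM with vehicle, 69.6, 63.9, 67.7 and 68.5 at 10 µM and 68.0, 70.2, 66.9 and 73.7 at 50 µM. These groups overlapped as well (log2 fold change 0.021 against vehicle, 95% interval -0.13 to 0.17). For *Dhx58* (LGP2, a regulator of the other RIG-I-like sensors), *Zbp1* and *Eif2ak2* (PKR, a kinase that stops translation on double-stranded RNA), log2 fold changes at 50 µM lay between -0.016 and 0.18 against vehicle and between -0.21 and 0.024 against 10 µM.

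The IFIT genes, whose products bind foreign RNA ends and block translation, had log2 fold changes below 0 at 50 µM for all 3 in both comparisons, and *Ifit2* and *Ifit3* passed. *Ifit2* (ENSMUSG00000045932, chr19:34550694-34576419) had 15.3, 13.8, 17.9 and 12.8 CPM with vehicle, 11.4, 12.2, 15.7 and 17.1 at 10 µM and 11.3, 8.32, 7.67 and 9.32 at 50 µM. All 50 µM libraries were below all the others. *Ifit2* fell against vehicle (log2 fold change -0.70, standard error 0.14, adjusted p = 0.00618) and against 10 µM (log2 fold change -0.62, standard error 0.15, adjusted p = 0.0113), in each of the fits that left out 1 library. *Ifit3* (ENSMUSG00000074896, chr19:34583531-34588731) was less abundant, with 2.04, 0.780, 1.703 and 1.95 CPM with vehicle, 1.85, 1.16, 2.18 and 2.15 at 10 µM and 0.782, 0.806, 0.825 and 0.420 at 50 µM. Vehicle replicate 2 lay among the 50 µM libraries, whereas all 10 µM libraries were above them. *Ifit3* fell from 10 to 50 µM (log2 fold change -1.37, standard error 0.34, adjusted p = 0.0127) and missed the threshold against vehicle (log2 fold change -1.18, standard error 0.38, adjusted p = 0.0581); without vehicle replicate 2 it passed there too (log2 fold change -1.42, adjusted p = 0.0173). It also passed there under 5 of 9 other settings (adjusted p between 0.0245 and 0.110). Reads of *Ifit3* may be split with its near copy *Ifit3b*. *Ifit1* measured 4.12, 6.09, 5.56 and 2.74 CPM with vehicle, 3.95, 5.62, 4.33 and 5.22 at 10 µM and 3.23, 3.88, 4.22 and 2.90 at 50 µM. The groups overlapped and neither difference passed (log2 fold change -0.37, adjusted p = 0.343 against vehicle and log2 fold change -0.42, adjusted p = 0.147 against 10 µM).

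In the OAS family, whose enzymes make 2′-5′ oligoadenylate to activate RNase L, 3 of 5 genes fell from 10 to 50 µM (background 7.85%) and none passed against vehicle. *Oas3* (ENSMUSG00000032661, chr5:120753098-120777661) measured 31.1, 35.1, 45.2 and 34.5 CPM with vehicle, 44.5, 45.4, 40.6 and 45.4 at 10 µM and 32.7, 28.4, 31.9 and 31.6 at 50 µM. The 10 µM and 50 µM libraries did not overlap, and vehicle spanned the gap between them. *Oas3* fell from 10 to 50 µM (log2 fold change -0.50, standard error 0.076, adjusted p = 3.72e-04), the smallest adjusted p of the family, and the difference from vehicle was smaller (log2 fold change -0.22, 95% interval -0.46 to 0.016, adjusted p = 0.212). *Oas1a* (ENSMUSG00000052776, chr5:120896256-120907521) had 29.6, 30.6, 34.4 and 44.2 CPM with vehicle, 52.2, 51.0, 38.7 and 38.4 at 10 µM and 34.0, 31.7, 37.7 and 25.7 at 50 µM. Vehicle overlapped both IPA groups, which did not overlap each other. *Oas1a* fell from 10 to 50 µM (log2 fold change -0.48, standard error 0.12, adjusted p = 0.0155), except without 10 µM replicate 2 or 50 µM replicate 4 (adjusted p between 0.0554 and 0.0586), and its near copy *Oas1g* may share its reads.

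*Oasl2* (ENSMUSG00000029561, chr5:114896936-114912234) measured 16.9, 17.1, 25.1 and 16.2 CPM at 50 µM, where replicate 3 stood above the other 3 libraries and yet below all 10 µM libraries given above. *Oasl2* fell from 10 to 50 µM (log2 fold change -0.51, standard error 0.12, adjusted p = 0.00997) and did not pass against vehicle (log2 fold change -0.14, adjusted p = 0.576). *Oas2* measured 7.49, 20.3, 14.5 and 5.65 CPM with vehicle, 9.89, 10.3, 13.3 and 14.1 at 10 µM and 9.53, 8.32, 13.4 and 6.38 at 50 µM. Vehicle replicate 2 was the highest and vehicle replicate 4 the lowest of all 12 libraries, and no comparison passed (adjusted p = 0.997, 0.553 and 0.254). *Oasl1*, which restrains the translation of *Irf7*, stood at 1.75 ± 0.598 CPM (SD, n = 4) with vehicle, 2.84 ± 0.542 (SD, n = 4) at 10 µM and 2.55 ± 0.729 (SD, n = 4) at 50 µM, and it did not pass (log2 fold change 0.69, adjusted p = 0.459 at 10 µM and log2 fold change 0.55, adjusted p = 0.245 at 50 µM against vehicle).

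Among the Mx proteins and the effectors that act on RNA or nucleotides, *Mx1* rose at 50 µM while *Cmpk2*, *Samd9l* and *Rsad2* fell. *Mx1* (ENSMUSG00000000386, chr16:97447035-97462907), a dynamin-like GTPase that traps viral components and whose gene is disrupted in C57BL/6 and many other inbred strains, had 8.02, 12.7, 6.90 and 4.02 CPM with vehicle, 5.91, 8.33, 7.68 and 11.4 at 10 µM and 11.8, 15.1, 16.4 and 13.3 at 50 µM. All 50 µM libraries were above all 10 µM libraries, and vehicle replicate 2 overlapped them. *Mx1* was higher than with vehicle (log2 fold change 0.85, standard error 0.25, adjusted p = 0.0380) and than at 10 µM (log2 fold change 0.78, standard error 0.17, adjusted p = 0.00513). The call against vehicle was lost without vehicle replicate 1 or 3 or 50 µM replicate 1, 2, 3 or 4 (adjusted p between 0.0532 and 0.113). That against 10 µM was lost in a fit of all 12 libraries (adjusted p = 0.0570) and held in all 8 fits without 1 library. *Mx2* was low, averaging 0.678 ± 0.287 CPM (SD, n = 4) in vehicle libraries and 0.876 ± 0.356 (SD, n = 4) in those at 50 µM, and passed in no comparison.

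*Cmpk2* (ENSMUSG00000020638, chr12:26469204-26479837), a mitochondrial nucleotide kinase, measured 20.3, 23.2, 22.6 and 23.6 CPM with vehicle, 25.1, 24.9, 22.5 and 22.03 at 10 µM and 15.8, 11.62, 12.2 and 10.7 at 50 µM. Every library at 50 µM was below the other 8, and no other of the 45 genes had a smaller adjusted p at 50 µM. *Cmpk2* fell to 0.562 times its level with vehicle (log2 fold change -0.83, standard error 0.12, adjusted p = 6.29e-04) and to 0.532 times that at 10 µM (log2 fold change -0.91, standard error 0.12, adjusted p = 7.49e-05). *Rsad2* (ENSMUSG00000020641, chr12:26442746-26456452), or viperin, which makes a chain-terminating nucleotide and lies next to *Cmpk2* on chromosome 12, had 7.30, 6.65, 9.90 and 9.34 CPM with vehicle, 9.13, 9.78, 9.33 and 11.1 at 10 µM and 6.30, 4.80, 8.16 and 5.63 at 50 µM. Its 50 µM libraries lay below all those at 10 µM but overlapped vehicle. *Rsad2* fell from 10 to 50 µM (log2 fold change -0.66, standard error 0.16, adjusted p = 0.00910) and did not pass against vehicle (log2 fold change -0.41, adjusted p = 0.163).

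*Samd9l* (ENSMUSG00000047735, chr6:3372257-3399572) measured 138, 186, 201 and 138 CPM with vehicle, 114, 163, 241 and 218 at 10 µM and 109, 98.4, 120.4 and 108 at 50 µM. The 50 µM libraries were below all vehicle libraries, while 10 µM replicate 1 lay among them and the other 10 µM libraries were spread widely. *Samd9l* fell against vehicle (log2 fold change -0.60, standard error 0.12, adjusted p = 0.00539) and against 10 µM (log2 fold change -0.75, standard error 0.16, adjusted p = 0.00547). *Isg20*, an exonuclease of single-stranded RNA, stood at 7.48 ± 1.99 CPM (SD, n = 4) with vehicle, 7.66 ± 0.696 (SD, n = 4) at 10 µM and 7.58 ± 2.02 (SD, n = 4) at 50 µM, with no comparison past the threshold.

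In the ISG15 and ubiquitin group, *Usp18* rose and *Trim30a* fell at 50 µM. *Usp18* (ENSMUSG00000030107, chr6:121245906-121270917), which removes ISG15 from proteins and restrains signalling at IFNAR2, had 7.64, 6.68, 9.37 and 8.63 CPM with vehicle, 11.4, 10.1, 9.52 and 8.79 at 10 µM and 16.3, 17.7, 13.8 and 11.0 at 50 µM. The 50 µM libraries were above all vehicle libraries, and the lowest of them, replicate 4, fell within the range at 10 µM. *Usp18* was 1.83 times its level with vehicle (log2 fold change 0.87, standard error 0.16, adjusted p = 0.00286) and 1.48 times that at 10 µM (log2 fold change 0.57, standard error 0.14, adjusted p = 0.0140). The latter did not pass without 50 µM replicate 2 (adjusted p = 0.0600). Among the 45 genes *Usp18* had the largest rise against vehicle, while *Isg15* itself did not differ between the doses beyond its spread (log2 fold change 0.0015, 95% interval -0.32 to 0.32).

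*Trim30a* (ENSMUSG00000030921, chr7:104409025-104465193), a TRIM protein that dampens NF-kappaB signalling, measured 87.0, 83.5, 82.3 and 79.3 CPM with vehicle, 98.0, 83.3, 84.7 and 81.8 at 10 µM and 72.4, 70.8, 72.4 and 64.2 at 50 µM. Those at 50 µM lay below the other 8. *Trim30a* fell against vehicle (log2 fold change -0.24, standard error 0.071, adjusted p = 0.0403) and against 10 µM (log2 fold change -0.31, standard error 0.075, adjusted p = 0.0100). The call against vehicle was lost without vehicle replicate 1, 2 or 3 or 50 µM replicate 1, 2 or 4 (adjusted p between 0.0533 and 0.119), with a replicate block (adjusted p = 0.0626) and with no filter on low counts (adjusted p = 0.0644). *Herc6* (an ISG15 ligase in mice), *Trim25* (a ubiquitin ligase acting with RIG-I), the partners *Dtx3l* and *Parp9*, and *Parp14* (an ADP-ribosyltransferase) passed in no comparison. Their log2 fold changes lay between -0.042 and 0.27 at 10 µM against vehicle and between -0.077 and 0.14 at 50 µM against vehicle. *Parp9* at 10 µM (50.1 ± 1.95 CPM, SD, n = 4) stood above both vehicle (42.2 ± 3.74, SD, n = 4) and 50 µM (43.6 ± 1.85, SD, n = 4) without overlap, although neither difference passed. The one between the doses did so under 2 of 9 other settings (adjusted p between 0.0374 and 0.152). *Dtx3l* and *Parp9* overlap on opposite strands by 458 bases of exon.

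The 3 membrane and trafficking factors went different ways. *Ifitm3* (ENSMUSG00000025492, chr7:141009586-141010770) measured 444, 437, 482 and 548 CPM with vehicle, 517, 453, 466 and 428 at 10 µM and 622, 587, 691 and 599.9 at 50 µM. Those at 50 µM were above all the others. *Ifitm3* rose against vehicle (log2 fold change 0.40, standard error 0.087, adjusted p = 0.00923) and against 10 µM (log2 fold change 0.43, standard error 0.072, adjusted p = 8.22e-04), in all fits that left out 1 library. *Bst2* (ENSMUSG00000046718, chr8:71534255-71537456) had 39.2, 37.1, 39.6 and 48.5 CPM with vehicle, 55.0, 48.6, 46.9 and 44.2 at 10 µM and 54.0, 50.1, 64.5 and 49.1 at 50 µM. All 50 µM libraries were above all vehicle libraries, and the 10 µM libraries lay between and across them. *Bst2* rose against vehicle (log2 fold change 0.41, standard error 0.11, adjusted p = 0.0231) and did not pass against 10 µM (log2 fold change 0.16, adjusted p = 0.268). The rise was not called without vehicle replicate 1, 2 or 3 or 50 µM replicate 1 or 3 (adjusted p between 0.0501 and 0.0732). *Rtp4* (ENSMUSG00000033355, chr16:23520291-23614222) encodes an interferon-induced receptor transporter protein. *Rtp4* fell from 9.80 ± 2.81 CPM (SD, n = 4) at 10 µM to 5.72 ± 2.03 (SD, n = 4) at 50 µM (log2 fold change -0.78, standard error 0.24, adjusted p = 0.0385), with overlapping groups. That call was lost in a fit of all 12 libraries (adjusted p = 0.0627) and without 10 µM replicate 1 or 2 or 50 µM replicate 2 or 4 (adjusted p between 0.0934 and 0.117).

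Of the interferon-inducible GTPases, which attack the vacuoles of intracellular pathogens, *Irgm1* and *Ifi47* fell from 10 to 50 µM and none passed against vehicle. *Irgm1* (ENSMUSG00000046879, chr11:48861968-48871683) measured 31.1, 26.9, 30.02 and 30.1 CPM with vehicle, 32.5, 33.3, 27.7 and 29.9 at 10 µM and 28.3, 25.1, 22.6 and 22.6 at 50 µM. Lower values came mostly from 50 µM, with replicate 1 inside the range at 10 µM. *Irgm1* fell from 10 to 50 µM (log2 fold change -0.32, standard error 0.094, adjusted p = 0.0302), though not without 10 µM replicate 1 or 2 or 50 µM replicate 2, 3 or 4 (adjusted p between 0.0634 and 0.100). *Ifi47* (ENSMUSG00000078920, chr11:49076587-49096974) had 18.2, 19.98, 17.6 and 22.3 CPM with vehicle, 25.1, 23.1, 22.5 and 18.0 at 10 µM and 16.8, 16.9, 15.7 and 15.4 at 50 µM. The 50 µM libraries were below all the others. *Ifi47* fell against 10 µM (log2 fold change -0.45, standard error 0.11, adjusted p = 0.00825) and missed the threshold against vehicle (log2 fold change -0.26, adjusted p = 0.103), where it passed under 1 of 9 other settings (adjusted p between 0.0462 and 0.155). Its exons share 111 bases with *Olfr56* on the same strand.

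The guanylate-binding proteins and *Igtp* passed in no comparison. *Gbp2* measured 46.6, 41.4, 38.4 and 40.3 CPM with vehicle, 52.0, 53.2, 38.8 and 41.2 at 10 µM and 56.8, 61.7, 44.0 and 42.4 at 50 µM. Replicates 1 and 2 at 50 µM were higher than any other library, replicates 3 and 4 lay within the other groups, and *Gbp2* did not pass (log2 fold change 0.31, adjusted p = 0.110 against vehicle). *Gbp3* (log2 fold change 0.30, adjusted p = 0.207), *Gbp7* (log2 fold change 0.045, adjusted p = 0.884) and *Igtp*, a GTPase of the IRG family (log2 fold change 0.025, adjusted p = 0.901) complete the GTPases, here again for 50 µM against vehicle.

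Of the 6 other genes, *Epsti1* and *Xaf1* rose against vehicle at 50 µM while *Ifi204* and *Sp100* fell against 10 µM. *Epsti1* (ENSMUSG00000022014, chr14:77904239-78002657) measured 34.7, 34.3, 45.7 and 31.9 CPM at 50 µM, where all libraries were above the vehicle libraries given above. *Epsti1* rose against vehicle (log2 fold change 0.61, standard error 0.11, adjusted p = 0.00337) in all 8 fits that left out 1 library and did not differ in the test from 10 µM (log2 fold change 0.20, adjusted p = 0.207). *Xaf1* (ENSMUSG00000040483, chr11:72301629-72313733), which antagonises the inhibitor of apoptosis XIAP, had 3.97, 5.53, 4.44 and 4.45 CPM with vehicle, 7.28, 5.42, 6.47 and 6.73 at 10 µM and 5.42, 7.14, 8.93 and 6.89 at 50 µM. Replicate 1 of the 50 µM group and replicate 2 of the 10 µM group lay just below the highest vehicle library, and the other IPA libraries were above it. *Xaf1* rose against vehicle at 50 µM (log2 fold change 0.63, standard error 0.17, adjusted p = 0.0273), a call lost without vehicle replicate 1 or 3 or 50 µM replicate 2, 3 or 4 (adjusted p between 0.0600 and 0.0892).

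*Ifi204* (ENSMUSG00000073489, chr1:173747293-173766943), a sensor of cytosolic DNA of the IFI200 family, measured 25.7, 33.1, 35.0 and 33.3 CPM with vehicle, 32.6, 34.5, 31.8 and 32.5 at 10 µM and 24.8, 22.9, 27.97 and 23.3 at 50 µM. The 50 µM libraries were below all 10 µM libraries and overlapped vehicle through vehicle replicate 1. *Ifi204* fell against vehicle (log2 fold change -0.35, standard error 0.11, adjusted p = 0.0452) and against 10 µM (log2 fold change -0.41, standard error 0.084, adjusted p = 0.00392). The call against vehicle was lost without vehicle replicate 2, 3 or 4 or 50 µM replicate 1, 2 or 4 (adjusted p between 0.0532 and 0.144) and by limma-voom (adjusted p = 0.0537), and reads of this gene may be split with its close relatives. *Sp100* (ENSMUSG00000026222, chr1:85649988-85709998), a protein of nuclear bodies that silences viral genomes, had 113, 121, 122 and 114 CPM with vehicle, 121, 117, 125 and 128 at 10 µM and 97.1, 94.8, 109 and 99.7 at 50 µM. Its 50 µM libraries were below the other 8. *Sp100* fell against 10 µM (log2 fold change -0.29, standard error 0.066, adjusted p = 0.00711) and missed the threshold against vehicle (log2 fold change -0.22, standard error 0.070, adjusted p = 0.0555), although the latter difference passed under 5 of 9 other settings (adjusted p between 0.0157 and 0.0839) and without vehicle replicate 4 or 50 µM replicate 3 (adjusted p = 0.0335 and 0.0277). *Ifi44* and *Ifi35* passed in no comparison (*Ifi44* log2 fold change -1.64, adjusted p = 0.0871 and *Ifi35* log2 fold change -0.092, adjusted p = 0.563 at 50 µM against 10 µM), but *Ifi44* passed against 10 µM under 3 of 8 other settings (adjusted p between 0.0338 and 0.138).

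**Figure D4:**
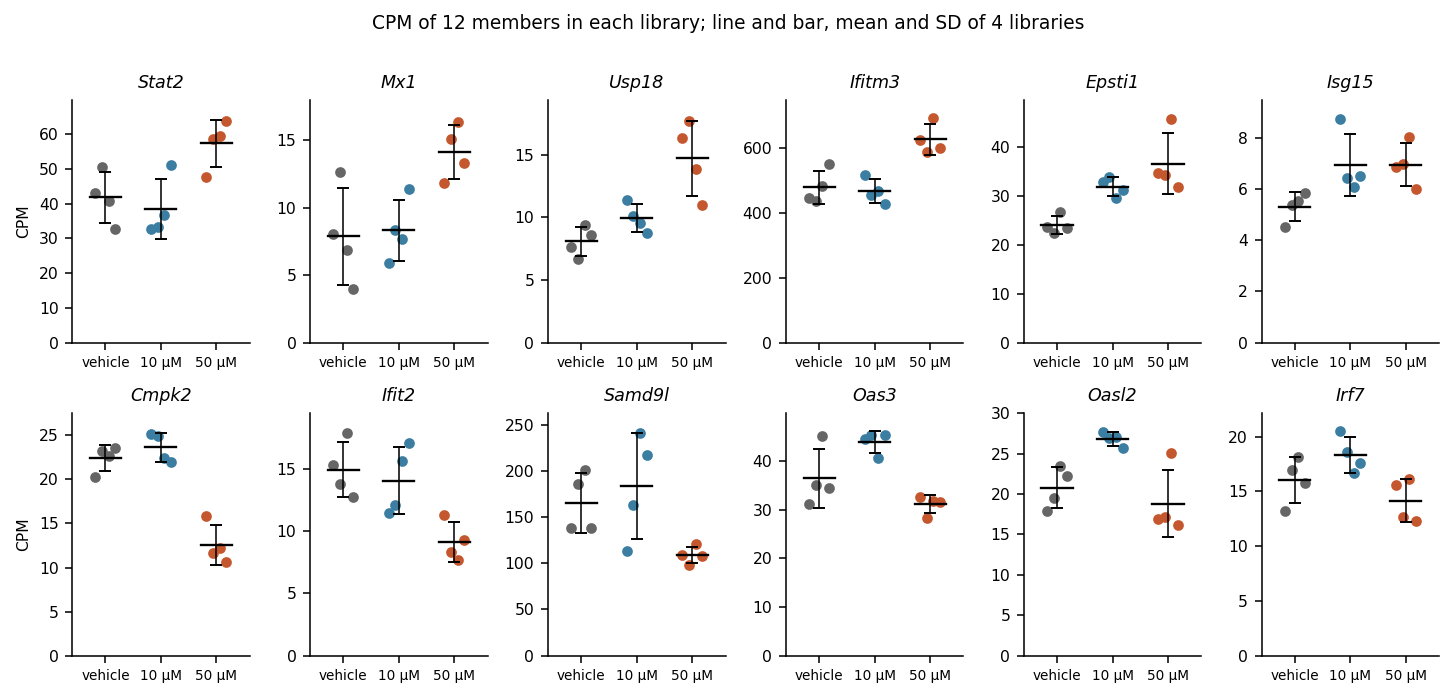
CPM of 12 of the genes in each of the 12 libraries (points; y axes are linear and start at 0), with the mean (line) and SD (bar) of the 4 libraries of vehicle, 10 µM IPA and 50 µM IPA. *Stat2*, *Mx1*, *Usp18* and *Ifitm3* were highest at 50 µM and *Cmpk2*, *Ifit2* and *Samd9l* lowest there; *Oas3*, *Oasl2* and *Irf7* were highest at 10 µM.

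Single libraries shared a direction over many of the genes. At 50 µM, replicate 4 had the lowest CPM of its group for 24 of the 45 genes (53.3%, against 23.2% of all genes tested) and replicate 3 the highest for 26 (57.8%, against 30.5%). With vehicle, replicate 2 was the highest for 17 (37.8%, against 29.1%) and replicate 3 for 15 (33.3%, against 16.8%). Vehicle replicate 4 was the lowest for 18 (40%, against 34.1%). The number of the 45 genes that passed at 50 µM against vehicle was 6 without vehicle replicate 3, 7 without vehicle replicate 1, 50 µM replicate 2 or 50 µM replicate 4, and between 9 and 12 without any other library. Against 10 µM it lay between 15 and 19 whichever library was left out. The shares of all genes that passed in these fits are not given here. These counts therefore do not show a change particular to the 45 genes.

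The rest of the pathway was read from lists of ligands, receptors, relay and sensing genes. Of 21 interferon genes none passed the filter on low counts. 17 of them, *Ifnb1* and the 13 interferon alpha genes listed included, had 0 counts in all 12 libraries, and only *Ifnab* (at most 1 count), *Ifnk* (at most 3), *Ifnz* (at most 5) and *Ifng* (at most 2) had any. A count of 0 allows up to 3 reads per library. Of the 6 receptor chains, *Il10rb*, a chain shared by the receptors of interferon lambda and IL-10, fell at 50 µM against vehicle (log2 fold change -0.26, adjusted p = 0.0436) and against 10 µM (log2 fold change -0.27, adjusted p = 0.0231). The former was lost without vehicle replicate 1, 3 or 4 or 50 µM replicate 1, 2 or 4 (adjusted p between 0.0630 and 0.112), with a replicate block (adjusted p = 0.0702) and with no filter on low counts (adjusted p = 0.0599), and the latter without 10 µM replicate 1 or 2 or 50 µM replicate 2 or 4 (adjusted p between 0.0590 and 0.0834). *Ifnar1* (log2 fold change -0.089, adjusted p = 0.455), *Ifnar2* (log2 fold change -0.047, adjusted p = 0.763), *Ifngr1* (log2 fold change -0.18, adjusted p = 0.0899), *Ifngr2* (log2 fold change -0.12, adjusted p = 0.351) and *Ifnlr1* (log2 fold change -0.13, adjusted p = 0.569) did not pass at 50 µM against vehicle, and no receptor passed at 10 µM.

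Of 13 relay genes, 3 were higher and 1 lower at 50 µM against vehicle (background 13.5%), and 4 were higher and 1 lower against 10 µM (background 15.4%). *Irf1*, a factor induced by interferon gamma, had 40.1, 43.6, 39.0 and 39.8 CPM with vehicle, 37.8, 38.93, 37.3 and 38.1 at 10 µM and 41.9, 48.3, 57.4 and 51.7 at 50 µM. All 50 µM libraries were above all 10 µM libraries (log2 fold change 0.39, standard error 0.088, adjusted p = 0.00655), and the difference from vehicle lay at the threshold (log2 fold change 0.30, standard error 0.10, adjusted p = 0.0506) and passed under 6 of 9 other settings (adjusted p between 0.0240 and 0.0736). *Irf5* (log2 fold change 0.56, adjusted p = 2.85e-04) and *Irf8* (log2 fold change 0.40, adjusted p = 0.00142), factors of macrophages and dendritic cells, and *Jak2* (log2 fold change 0.30, adjusted p = 0.0154), the kinase of the GM-CSF and interferon gamma receptors, rose against vehicle, whereas *Socs3* (log2 fold change -0.64, adjusted p = 1.03e-04), a brake on IL-6 and related cytokines, fell. Without 50 µM replicate 2, *Jak2* did not pass (adjusted p = 0.0670).

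Of 17 tested genes of nucleic acid sensing upstream of interferon, 2 were higher and 2 lower at 50 µM in each comparison (background 13.5% against vehicle and 15.4% against 10 µM). *Unc93b1* (log2 fold change 0.49, adjusted p = 4.37e-04), the chaperone of the endosomal Toll-like receptors, and *Tlr7* (log2 fold change 0.38, adjusted p = 0.00692), a sensor of single-stranded RNA, rose against vehicle, while *Tlr3* (log2 fold change -1.001, adjusted p = 0.0243), a sensor of double-stranded RNA, and *Myd88* (log2 fold change -0.26, adjusted p = 0.0348), the adaptor of most of these receptors, fell. The fall of *Tlr3* was not called without vehicle replicate 1 or 3 or 50 µM replicate 2, 3 or 4 (adjusted p between 0.0647 and 0.0865), and that of *Myd88* without vehicle replicate 1 or 3 or 50 µM replicate 2, 3 or 4 (adjusted p between 0.0537 and 0.111) or with a replicate block (adjusted p = 0.0638). *Ikbke*, a kinase that activates IRF3, was higher than at 10 µM (log2 fold change 0.66, adjusted p = 5.60e-05).

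Of 65 further interferon-induced genes tested, 0 passed at 10 µM, 8 were higher and 4 lower at 50 µM against vehicle (background 13.5%), and 4 were higher and 11 lower against 10 µM (background 15.4%), with median log2 fold changes of 0.10, 0.085 and -0.016. *Ifit1bl2*, which lies among the IFIT genes, measured 2.46, 2.19, 3.36 and 2.66 CPM with vehicle, 3.95, 3.92, 3.88 and 4.40 at 10 µM and 1.37, 0.476, 1.21 and 1.22 at 50 µM. The 3 groups did not overlap: the 10 µM libraries were highest and the 50 µM libraries lowest. *Ifit1bl2* fell at 50 µM against vehicle (log2 fold change -1.32, standard error 0.32, adjusted p = 0.0149) and against 10 µM (log2 fold change -1.93, standard error 0.28, adjusted p = 2.10e-04), the former not without vehicle replicate 3 (adjusted p = 0.0584). Its neighbour *Ifit1bl1* fell against 10 µM too (log2 fold change -2.31, adjusted p = 0.00702), as did *Ifi203* (log2 fold change -0.95, adjusted p = 5.82e-05) and *Ifi211* (log2 fold change -0.86, adjusted p = 0.00271), relatives of *Ifi204*. *Gbp8*, a guanylate-binding protein, rose against vehicle (log2 fold change 1.22, adjusted p = 0.0117), and so did *Phf11a* (log2 fold change 1.33, adjusted p = 0.0310), though not without vehicle replicate 2 or 3 or 50 µM replicate 1 or 2 (adjusted p between 0.0638 and 0.107). *Tgtp1*, an IRG GTPase with near copies, rose against vehicle (log2 fold change 2.73, adjusted p = 0.0167) from at most 0.199 CPM to between 0.546 and 0.879, a call lost without vehicle replicate 1 (adjusted p = 0.0521). As no vehicle library reached the 0.5 CPM of the filter, *Tgtp1* was tested only because of its level in IPA libraries. Its values lay near that floor.

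Markers of other cell types moved between the same groups. The summed CPM of 11 neutrophil markers ran from 20270 to 28570 with vehicle, 18760 to 21810 at 10 µM and 14230 to 19840 at 50 µM. Of these, 7 fell at 50 µM against vehicle and 6 against 10 µM. Of all genes tested, 7% were higher and 6.5% lower at 50 µM against vehicle, 7.52% higher and 7.85% lower against 10 µM, and 0.329% higher and 0.0806% lower at 10 µM against vehicle. 9 conventional dendritic cell markers summed to 589 to 735 CPM, 607 to 809 CPM and 944 to 1245 CPM in the same order. At 50 µM, 5 rose against vehicle and 3 against 10 µM. 10 plasmacytoid dendritic cell markers, a cell type known for its interferon output, summed to 136 to 143 CPM with vehicle, 156 to 169 CPM at 10 µM and 165 to 166 CPM at 50 µM. In both comparisons 3 were higher at 50 µM, 1 was lower at 50 than at 10 µM, and none passed at 10 µM against vehicle. 6 monocyte markers summed to 3515 to 4164, 4689 to 5667 and 3066 to 3879 CPM. Of these, 1 was higher at 10 µM (*Fn1*) and 3 lower at 50 µM against vehicle. The median log2 fold change of the list at 10 µM against vehicle was 0.15. Against 10 µM, 5 of the 6 fell at 50 µM (*Ly6c2*, *Ccr2*, *Vcan*, *Fn1* and *Csf1r*), with a median log2 fold change of -0.51 over the list. 10 macrophage markers summed to 995 to 1204, 1317 to 1480 and 1255 to 1357 CPM, with 3 higher at 10 µM, and at 50 µM 2 higher and 2 lower against vehicle. Against 10 µM, 1 of the 10 rose (*Adgre1*) and 6 fell at 50 µM (*Mrc1*, *C1qa*, *C1qb*, *C1qc*, *Mertk* and *Apoe*), with a median log2 fold change of -0.31. 8 B cell markers summed to 19.3 to 27.7, 24.2 to 34.4 and 38.1 to 60.9 CPM, with 5 higher at 50 µM in both comparisons. None of the markers in these 6 lists was at 0 in all libraries. 7 eosinophil markers summed to 881 to 1407 CPM over all libraries, with 3 lower at 50 µM in both comparisons. 7 mast cell and basophil markers summed to 225 to 380 CPM (*Mcpt4* at 0), with none past the threshold against vehicle and 1 higher at 50 than at 10 µM. 7 erythroid markers summed to at most 1.23 CPM (*Slc4a1* at 0), and the 1 of them tested did not pass. Of the T cell and NK cell markers, *Lck* alone passed, higher at 50 than at 10 µM. The part of these cell types in the changes of the 45 genes was not tested.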

How the data were processed

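RNA from 12 samples, 4 in each of 3 groups, was sequenced (AVITI) after stranded mRNA library preparation. According to the methods and the submitters' processing notes, the authors used Atropos for trimming, HISAT2 2.2.1 for alignment to mm10 and featureCounts 2.0.1 for counting on Ensembl genes. The deposited values are raw counts per gene, with no normalization. Whether counting used strand is not given in the sources used here. As 10 µM replicate 3 has the title of replicate 2, it was numbered by its library name.

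The 14894 genes that exceeded 0.5 CPM in 2 or more of the 12 libraries were tested. Each comparison was fitted to its own 8 libraries with edgeR 4.0.16 in R 4.3.3 (TMM, glmQLFit and glmQLFTest), without a block. Adjusted p is by Benjamini-Hochberg over all genes tested, with a threshold of 0.05, and intervals are 95% intervals of the fit. CPM was TMM-scaled over 12 libraries. The fits were tested on simulated data. Alternatives were DESeq2 1.42.0, limma-voom (limma 3.58.1), other scaling and filters, all 12 libraries, a replicate block, an offset for exon length and leaving out each library. Intervals and the limit that a count of 0 allows cover counting or fit error only.

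The members and the pathway and marker lists were chosen with earlier results of these data known. The value in every library is given for members past the threshold in any comparison (at most the 20 with the smallest adjusted p) and for 14 members named by symbol. From the pathway lists, up to 5 genes past the threshold per list and comparison are named, with the receptors and *Irf1*. 1 gene of the relay list is not reported here. *Ifit3*, *Oas1a*, *Ifi204* and *Tgtp1* have near copies that may share reads.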

Additional observations from a re-analysis of the deposited data

Results flagged for a closer look

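Of 135 groups of 4 libraries examined, 1 per gene and treatment, 4 held a library far from the other 3 by Dixon's test, which flags about 1 group in 20 by chance. *Dhx58* stood at 10.5 CPM in vehicle replicate 1, against 15.4 to 16.2 CPM in the other vehicle libraries. *Isg15* stood at 8.73 CPM in 10 µM replicate 1, against 6.10 to 6.50 CPM. At 50 µM, *Ifit3* stood at 0.420 CPM in replicate 4, against 0.782 to 0.825 CPM, and *Oasl2* at 25.1 CPM in replicate 3, against 16.2 to 17.2 CPM. *Oasl2* and *Ifit3* fell from 10 to 50 µM in all 8 fits that left out 1 library, these libraries included.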

How the results depend on the processing

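At 10 µM against vehicle, DESeq2 called 3 of the 45 genes and edgeR called 1, *Epsti1*, with no filter or with an offset for exon length. Every other setting called 0. The median log2 fold change of the 45 lay between 0.10 and 0.20 when 1 library was left out, highest without vehicle replicate 2. Over all genes, the 61 calls at 10 µM became 250 with DESeq2, 150 with no filter, 118 with all 12 libraries, 104 with the exon length offset, 3 with the replicate block and 4 to 122 with 1 library left out.

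At 50 µM against vehicle, between 6 and 12 of the 45 passed with 1 library left out, and between 11 and 14 under the other settings. Against 10 µM, these ranges were 15 to 19 and 17 to 21. The shares of all genes that passed in these fits at 50 µM, the replicate block included, are not given here. Replicate numbers did not pair the libraries (correlations of same-numbered libraries between -0.34 and 0.19), and with the replicate block 0, 11 and 19 of the 45 passed in the 3 comparisons. Of the calls of named genes, those of *Trim30a*, *Il10rb* and *Myd88* at 50 µM against vehicle were lost under it.

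Some log2 fold changes changed sign, none of them in a comparison in which the gene was called. All were near 0 except that of *Oas2* at 50 µM against vehicle (-0.34). At 10 µM, *Oas2* became 0.15 with limma-voom and 0.13 with the replicate block. For *Isg15* at 50 µM against 10 µM the value was -0.0042 with limma-voom, -0.0016 with all 12 libraries, -0.0093 with edgeR's bias-adjusted quasi-likelihood fit, an alternative added after the data had been seen, and -0.021 with the exon length offset. With 1 library left out it ran from -0.07 to 0.14. At 10 µM the same ranges were -0.14 to 0.21 for *Ifit1*, -0.25 to 0.38 for *Oas2*, -0.16 to 0.39 for *Mx1* and -0.090 to 0.037 for *Ifitm3*. At 50 µM against vehicle they were -0.0065 to 0.038 for *Ddx58* and -0.57 to 0.035 for *Oas2*. The cause was not tested. At 0 to 36 counts per library, differences in *Ifi44* were not detectable unless large.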
